A study of Homo sapiens with 24 samples.

Results

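The genes described here are 56 genes of the mitotic spindle, the kinetochore and the spindle checkpoint, taken from a fixed list of symbols and followed through mRNA sequencing of aneuploid human cell lines and the lines they were derived from. All 56 were found in 3 of the 4 deposited tables and 55 in the fourth, the table of RPE1* 21/3, which had no row for the condensin subunit NCAPD2. Every one of them had a mean normalized read count of at least 10 wherever it had a row, among 16742 genes listed in any table, and 55 were among the 11939 genes that reached 10 in all 4 tables. The series held 24 libraries of 8 cell lines, with 3 libraries per line.

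HCT116 is a colon carcinoma line, and RPE1 is a line of retinal pigment epithelium immortalized with hTERT. An asterisk marks lines that stably express histone H2B fused to GFP. The modal chromosome number of the parental lines was 45 in HCT116 and HCT116* and 46 in RPE1 and RPE1*. HCT116 5/4 carries 4 copies of chromosome 5 and was set against HCT116. HCT116* 8/3 c7, a single clone, carries 3 copies of chromosome 8 and was set against HCT116*, so that both groups of that table expressed H2B-GFP. RPE1 5/3 12/3 carries 3 copies of chromosomes 5 and 12, the second of which was gained spontaneously, and was set against RPE1. RPE1* 21/3 carries 3 copies of chromosome 21 and was set against RPE1*, again with H2B-GFP in both groups. HCT116 5/4 had been received from another laboratory, and the other aneuploid lines were made by microcell-mediated transfer of a chromosome.

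Each table gave, for each gene, the authors' mean normalized read count over the 3 aneuploid and the 3 parental libraries of that table together, and only this mean was used. A level below therefore belongs to an aneuploid line and its parental line jointly, and the columns that separate these groups hold the authors' own comparisons and were not used. The 4 tables shared no library and were normalized separately, so log2 differences between tables were taken only after rescaling. Levels per kb and the means of cell type markers were not rescaled. No value per library could be taken from the tables, hence no replicate spread could be computed, no test was made, and depth per library was unknown. All differences below are descriptions of 1 pooled value per table, read against the share of all genes that differed by as much.

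Chromosome segregation depends on kinetochores, the protein assemblies that bind centromeric chromatin on one side and spindle microtubules on the other. The spindle checkpoint keeps the anaphase-promoting complex inactive until every kinetochore is attached, after which securin and cyclin B are degraded and separase opens the cohesin rings. Many of the genes involved are transcribed mainly in G2 and mitosis, through promoters that often hold a cell cycle genes homology region (CHR) and CCAAT boxes, so that their RNA level in a bulk culture follows the share of dividing cells as well as the level in each cell. In bulk libraries, fewer dividing cells and less RNA per cell cannot be told apart.

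The CHR letters TTTGAA, read on either strand of the window from 250 bases before to 50 bases after the gene start, were found in 27 of the 47 genes that had a RefSeq promoter sequence (57.4%). The same letters were found in 15.2% of all 35116 promoters of that length and in 9.33% of the 9369 promoters of genes compared in all 4 tables. CCAAT was found on either strand in 30 of the 47 (63.8%), against 34.6% of all promoters and 36.6% of those of compared genes. Both motifs, whose letters do not overlap, were present in 19 of the 47 (40.4%), against 5.90% and 3.99%. BUB3, TTK, KNTC1, UBE2C, BIRC5, AURKA, TPX2, CENPH and CASC5 were not among the sequences matched.

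Short stretches around the CHR letters, written 5′ to 3′ on the strand of the gene with the motif in capitals (TTCAAA where it lies on the opposite strand), are given for genes at either end of the comparison of the cell backgrounds described further on. They are RefSeq sequence of build GRCh38.p14. The first 8 genes had higher levels in the HCT116-derived tables, and the last 3 leaned towards the RPE1-derived tables.
KIF18A, chr11:28108149-28108178, minus strand: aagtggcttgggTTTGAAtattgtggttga
ESPL1, chr12:53268256-53268285, plus strand: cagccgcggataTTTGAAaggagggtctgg
CDC20, chr1:43358904-43358933, plus strand: cgacggttggatTTTGAAggagccaatagg
NCAPG, chr4:17810932-17810961, plus strand: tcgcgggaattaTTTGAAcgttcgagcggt
MAD2L1, chr4:120066807-120066836, minus strand: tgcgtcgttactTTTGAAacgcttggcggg
SKA3, chr13:21176538-21176567, minus strand: ccggcgccgagaTTCAAActagtggcggga
INCENP, chr11:62123989-62124018, plus strand: tgagccttcagtTTTGAAaatcatagtttt
PLK1, chr16:23678848-23678877, plus strand: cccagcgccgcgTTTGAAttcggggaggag
SMC4, chr3:160399563-160399592, plus strand: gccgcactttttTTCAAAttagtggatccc
KIF11, chr10:92593090-92593119, plus strand: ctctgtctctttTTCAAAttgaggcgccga
SMC2, chr9:104094294-104094323, plus strand: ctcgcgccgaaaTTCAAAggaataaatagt

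The motif lay close to the gene start in most of these genes: it began 10 bases upstream in KIF18A and INCENP, 31 in ESPL1, 65 in CDC20, 35 in NCAPG, 29 in PLK1, 28 in KIF11 and 75 in SMC4, 3 bases upstream in SKA3 and SMC2, and 24 bases downstream in MAD2L1. CDC20 held a further copy on the opposite strand. A match of these letters is a description of the sequence and not evidence of a bound site.

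Within each table, the mitotic genes were among the more highly expressed genes. Levels per kb (the mean normalized read count divided by the length of all exons of the gene, GENCODE 44 on GRCh37) were ranked among all genes of the same table with a mean of at least 10. Reads had been counted over RefSeq exons, and for some genes the longest transcript is far shorter than all exons together (1731 against 4309 bases in CENPK). Ranks and subunit ratios per kb may therefore differ with another length. The median percentile of the mitotic genes was 80.7 in the HCT116 5/4 table, 75.5 in the HCT116* 8/3 c7 table, 70.0 in the RPE1 5/3 12/3 table and 65.6 in the RPE1* 21/3 table. Levels above the 50th percentile were found for 51 of 56, 49 of 56, 44 of 56 and 42 of 55 genes in the same order. The median level per kb was 338 for the mitotic genes and 111 for all genes in the HCT116 5/4 table, 286 and 115 in the HCT116* 8/3 c7 table, 230 and 113 in the RPE1 5/3 12/3 table, and 163 and 95.8 in the RPE1* 21/3 table.

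**Figure D1:**
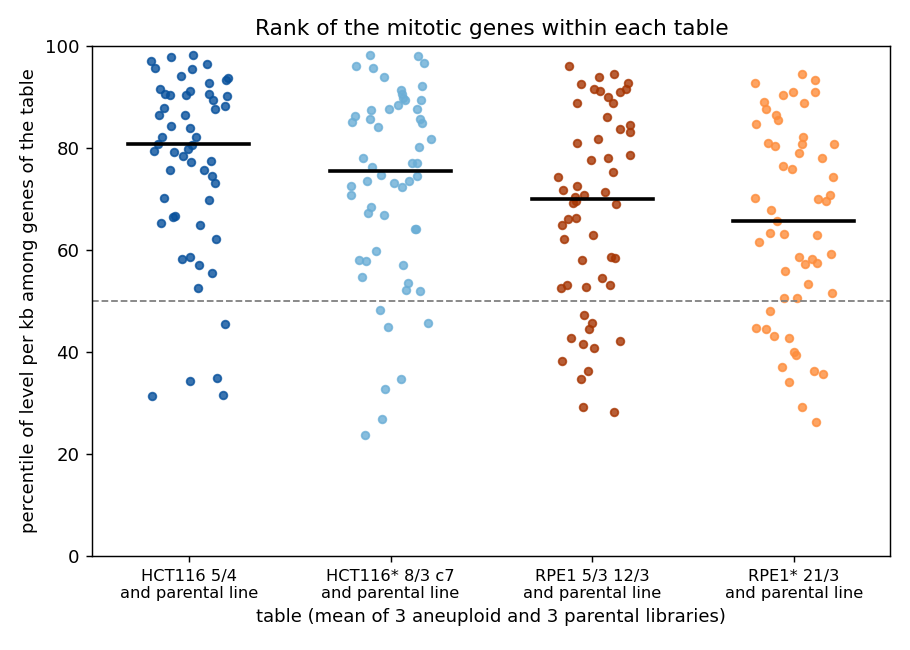
Percentile of the level per kb of exon of each mitotic gene (points, vertical axis) among all genes of the same table with a mean of at least 10, for the 4 tables (horizontal axis). Black bars are the medians, 80.7, 75.5, 70.0 and 65.6, and the dashed line is the 50th percentile.

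The 4 genes with the highest median level per kb of all exons act in different steps of mitosis. CDC20, the activator of the anaphase-promoting complex, stood at 2152 and 2182 per kb in the HCT116 5/4 and HCT116* 8/3 c7 tables and at 1008 and 701 in the RPE1 5/3 12/3 table and the RPE1* 21/3 table. TPX2, which activates Aurora A and nucleates spindle microtubules, stood at 1980, 1501, 1126 and 899 per kb in the same order. NCAPD2, a regulatory subunit of condensin I, stood at 1122, 1311 and 858 per kb in the 3 tables that list it. RCC2, a chromosomal passenger-associated protein also known as TD-60, stood at 1367, 2294, 749 and 761 per kb.

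By the length of all exons, the 4 lowest genes were all kinetochore components. CENPI of the inner kinetochore stood at 52.7, 34.9, 43.7 and 39.9 per kb, and its partner CENPK at 51.9, 41.9, 79.6 and 54.6. By the length of its longest transcript, CENPK would stand higher. NSL1 of the MIS12 complex stood at 59.8, 56.5, 46.6 and 34.3 per kb, and SPC24 of the NDC80 complex at 61.3, 62.0, 84.4 and 73.4. The distance between CDC20 and CENPI, at medians of 1580 and 41.8 per kb, gives the width of the range that the mitotic genes spanned. Their order was nearly the same in the 2 tables of a background (Spearman's rho across genes 0.98 for the HCT116-derived and 0.99 for the RPE1-derived tables) and less so between backgrounds (0.87 to 0.90). These correlations run across genes, which are not independent replicates.

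**Figure D2:**
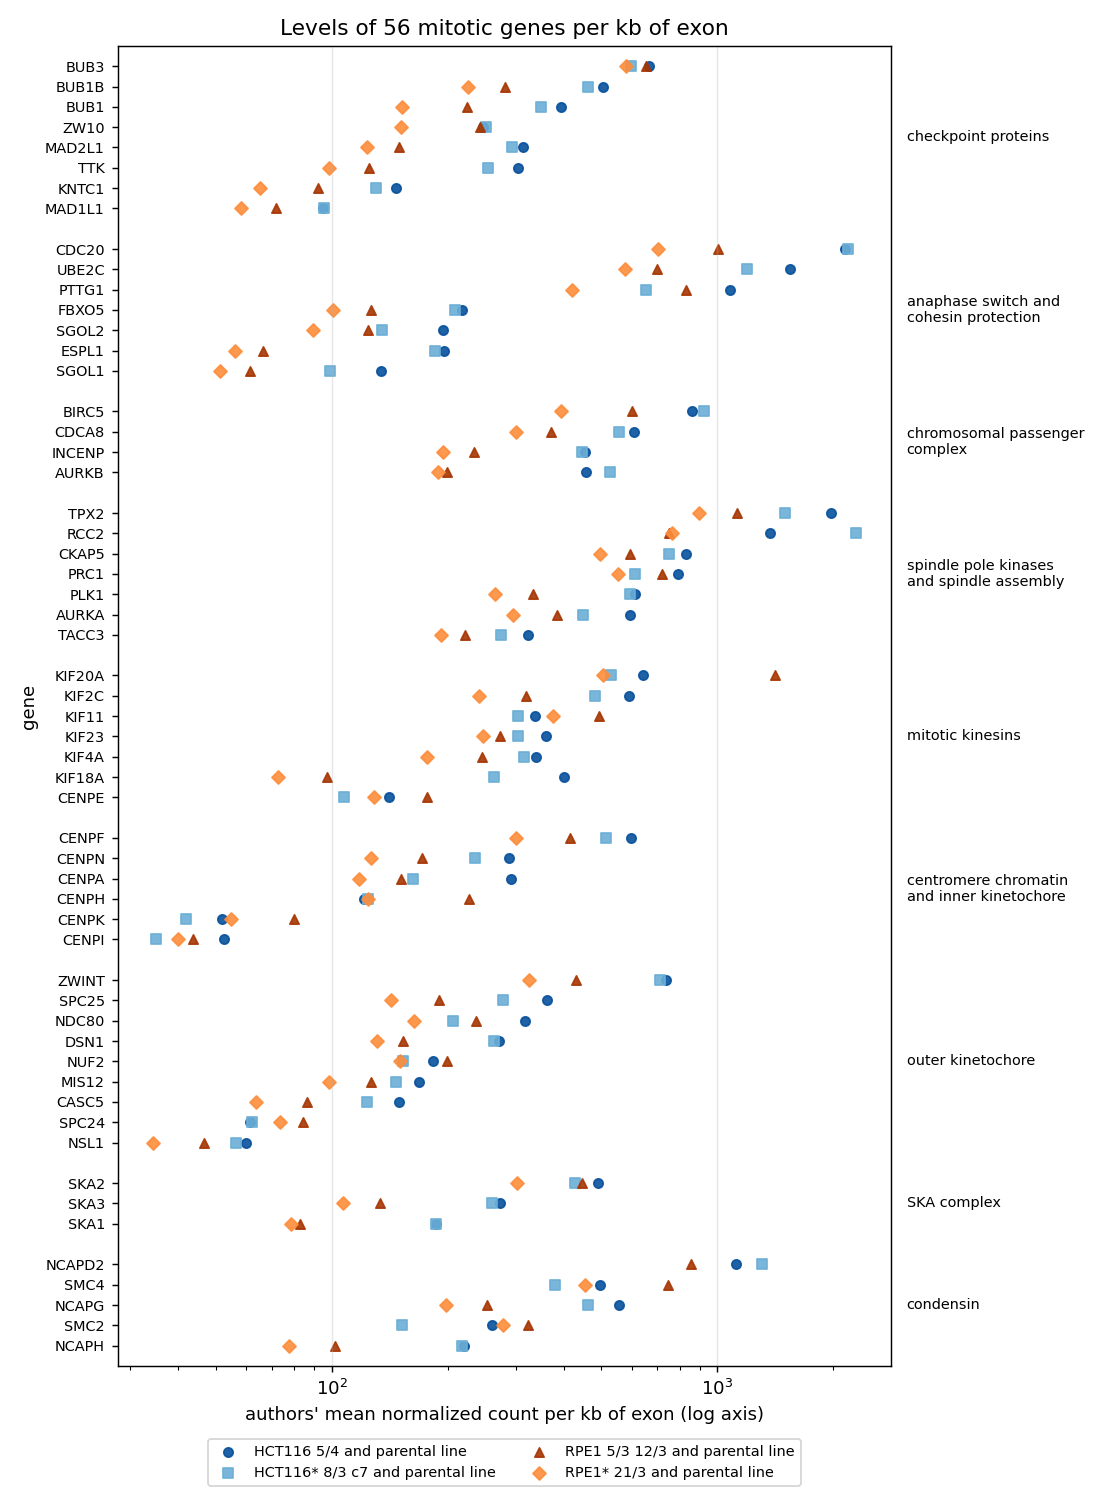
Mean normalized read count per kb of exon (log axis) of each mitotic gene (rows, grouped by role and ordered by level), with 1 symbol per table. Values are not rescaled between tables. Most genes have their blue HCT116-derived symbols to the right of the orange RPE1-derived ones, while KIF11, CENPK, SPC24, SMC2 and, narrowly, CENPH lie the other way.

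Subunits that are incorporated in equal numbers into one complex did not have equal RNA levels. In the NDC80 complex, the microtubule-binding rod of the outer kinetochore, SPC24 was the lowest subunit in all 4 tables, and the highest subunit exceeded it 5.90-fold and 4.48-fold in the HCT116 5/4 and HCT116* 8/3 c7 tables (SPC25) and 2.80-fold and 2.23-fold in the RPE1 5/3 12/3 table and the RPE1* 21/3 table (NDC80 itself). NUF2, the partner of NDC80, stood between them at 183, 153, 200 and 151 per kb. The SKA complex, which couples kinetochores to shrinking microtubules, had SKA1 lowest and SKA2 highest in every table, at ratios of 2.63, 2.30, 5.4 and 3.86.

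The chromosomal passenger complex was the most even of the 4 complexes compared in each table, with ratios of 1.89, 2.08, 3.03 and 2.08 except in the RPE1 5/3 12/3 table, where the NDC80 complex was more even. BIRC5 (survivin) was its highest subunit in each table. The lowest was INCENP, the scaffold, in the HCT116-derived tables, and the kinase subunit AURKB in the RPE1-derived tables. This change of lowest subunit depends on the length used. AURKB has 2241 exon bases and a longest transcript of 1254, against 4454 and 4114 for INCENP. In condensin I, which compacts mitotic chromosomes, the ratios were 5.10, 8.63, 8.40 and 5.83, with NCAPD2 the highest subunit where it was listed and SMC4 in the RPE1* 21/3 table. The kleisin subunit NCAPH was the lowest in 3 tables and SMC2 in the HCT116* 8/3 c7 table. SMC2 and SMC4 also belong to condensin II, so that their levels serve both complexes.

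The 2 cell backgrounds differed in the level of the mitotic genes, mostly in the direction of HCT116. After the tables were rescaled by their median ratio, the median log2 difference (mean of the HCT116-derived tables minus mean of the RPE1-derived tables) was 0.52 for the 55 mitotic genes and 0.0034 for all 11939 genes. A gene was counted as higher in one background where its lower table there exceeded the higher table of the other background by more than 0.6 on the log2 scale, or 1.52-fold. By this rule 13 of 55 mitotic genes were higher in the HCT116-derived tables, against 17% of all genes, and none was higher in the RPE1-derived tables, against 18.5% of all genes. By any amount, 36 were higher in both HCT116-derived tables (39.6% of all genes were), 10 were higher in both RPE1-derived tables (40% of all genes), and 9 overlapped. Past the threshold and in this scaling, the HCT116 count, 23.6% of the mitotic genes, lay close to the share among all genes, while the RPE1 count lay below it.

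With the tables scaled to the same sum, 28.4% of all genes were higher in the HCT116-derived and 11.9% in the RPE1-derived tables. The counts of mitotic genes became 29 and 0 of 55, the first a larger share than among all genes. The number past the threshold, and its distance from the share among all genes, thus depend on the scaling. Under that scaling, 5 of the 10 genes higher in both RPE1-derived tables by any amount stayed so (KIF11, CENPH, CENPK, SPC24 and SMC2). These 5 of 55 compare with 25.9% of all genes, so the mitotic genes lay below the share among all genes. The lines differ in tissue of origin, parental chromosome number and gained chromosomes, and these cannot be told apart.

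**Figure D3:**
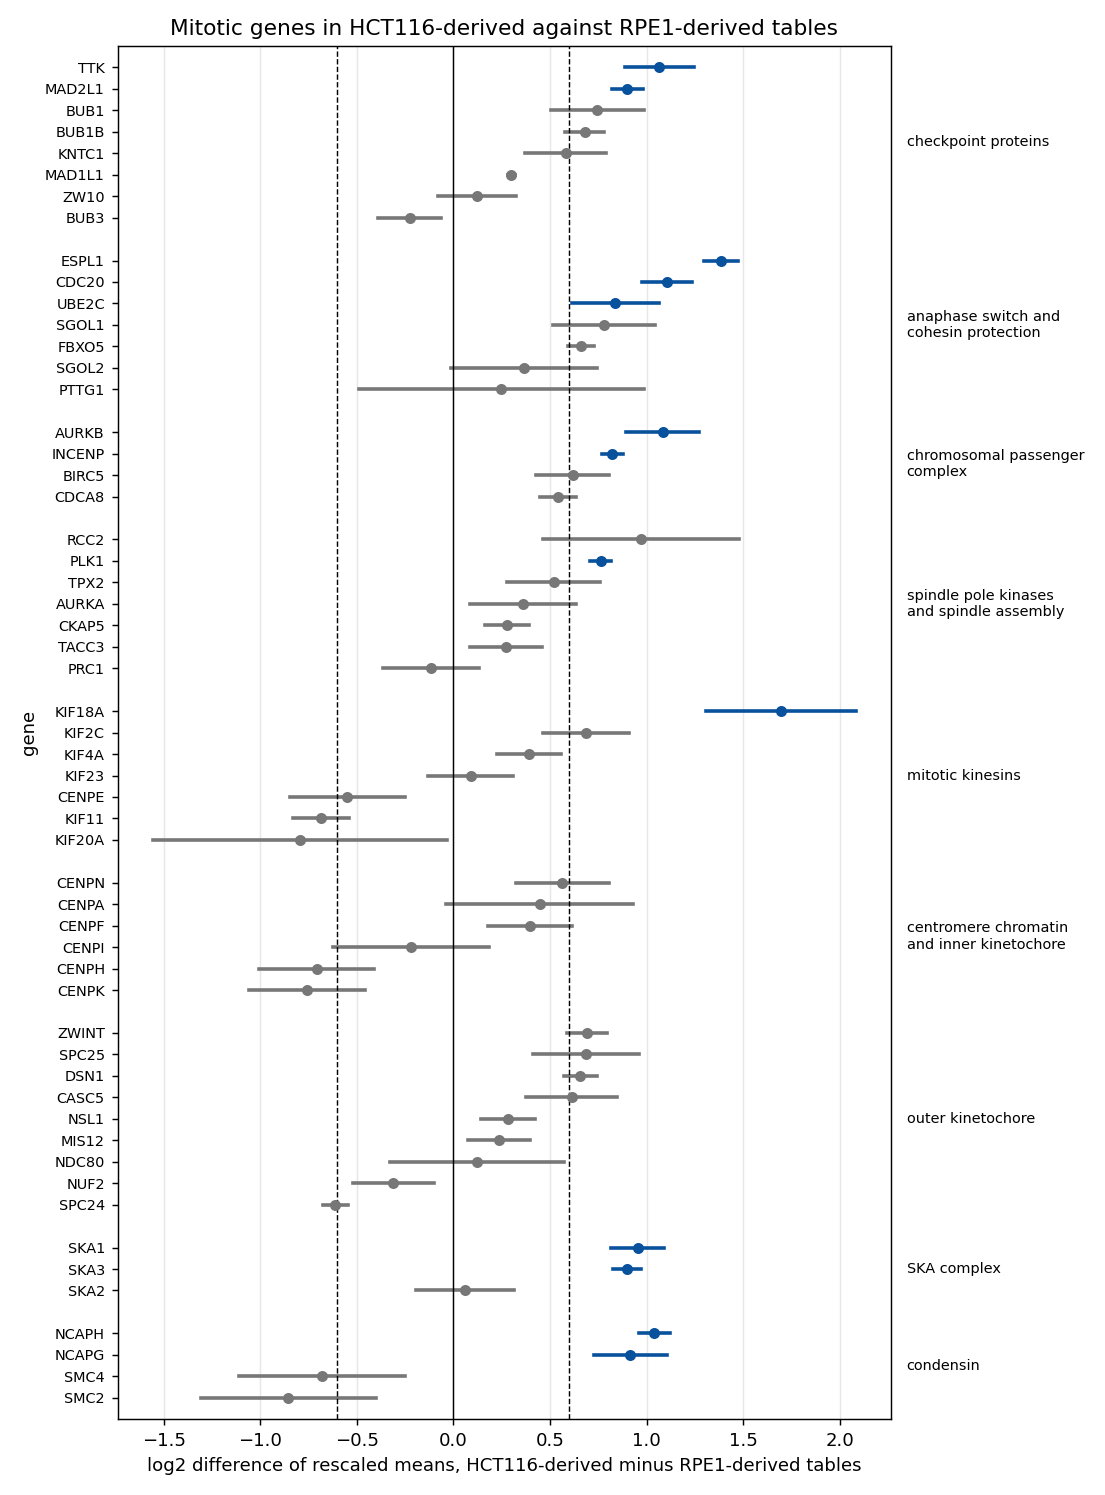
Log2 difference of the rescaled means, HCT116-derived minus RPE1-derived tables, for 55 mitotic genes grouped by role. Points are the mean of the 4 differences between tables and bars run from the smallest to the largest of them. Dashed lines mark 0.6 in either direction and the 13 genes past it in all 4 differences are blue.

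Among the checkpoint proteins, the median log2 difference was 0.63. Of these 8 genes, 2 were counted as higher in the HCT116-derived tables, against 17% of all genes. The same share of 17% stands beside the counts of each group below, and the groups are small. The checkpoint kinase TTK (MPS1) had rescaled means of 1293 and 1044 in the HCT116 5/4 and HCT116* 8/3 c7 tables and of 565 and 544 in the RPE1 5/3 12/3 table and the RPE1* 21/3 table, a log2 difference of 1.07. MAD2L1 encodes MAD2, the checkpoint protein that binds CDC20, and had means of 1612, 1456, 816 and 825 in the same order. BUB1 (0.75), BUB1B (0.68), KNTC1 (0.58) and MAD1L1 (0.30) leaned the same way with at least 1 difference below the threshold, and ZW10 overlapped at 0.12. BUB3, the WD-repeat partner of BUB1 and BUB1B, differed by -0.23, the single checkpoint gene higher in both RPE1-derived tables, but by 0.12 with the tables scaled to the same sum.

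The anaphase switch and cohesin protection genes had a median difference of 0.78, with 3 of 7 counted (17% of all genes were). ESPL1 encodes separase, the protease that cleaves cohesin, and had rescaled means of 1613, 1480, 580 and 603, a 2.61-fold difference. CDC20 had means of 4026, 3944, 2001 and 1709, a 2.15-fold difference. UBE2C, the ubiquitin-conjugating enzyme of the anaphase-promoting complex, lay just past the threshold, with 0.61 as its smallest log2 difference between tables. FBXO5 (EMI1, an inhibitor of that complex), at 0.594, ZWINT, at 0.588, BUB1B, at 0.578, and DSN1, at 0.573, lay just short of it. The shugoshins SGOL1 (0.78) and SGOL2 (0.37), now named SGO1 and SGO2, were not counted.

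All 4 passenger complex genes were higher in both HCT116-derived than in both RPE1-derived tables (39.6% of all genes were). The kinase AURKB and the scaffold INCENP were counted (17% of all genes were). AURKB had rescaled means of 952, 1063, 440 and 512, and INCENP of 1881, 1782, 1025 and 1046. BIRC5 and CDCA8 (borealin) had log2 differences of 0.62 and 0.54.

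Of the spindle pole and spindle assembly genes, only the mitotic kinase PLK1 was counted, with rescaled means of 2702, 2542, 1559 and 1532. RCC2 had a larger mean difference, of 0.97, but a smallest difference of 0.46. Its values lay apart within both backgrounds, at 5187 and 8405 in the HCT116-derived and 3015 and 3763 in the RPE1-derived tables. Aurora A (AURKA) and its activator TPX2 differed by 0.36 and 0.52, the microtubule polymerase CKAP5 by 0.28, its partner TACC3 by 0.27, and the midzone bundling protein PRC1 by -0.11 (0.23 when scaled to the same sum) with overlapping tables.

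The mitotic kinesins went in both directions. KIF18A, which dampens chromosome oscillations at the metaphase plate, had the highest difference of all the mitotic genes. Its rescaled means were 1686 and 1072 in the HCT116-derived and 432 and 397 in the RPE1-derived tables, a log2 difference of 1.70 or 3.24-fold. KIF11 (Eg5), the motor that separates the spindle poles, had means of 1667, 1456, 2589 and 2420, a log2 difference of -0.68 with the backgrounds apart but the smallest difference, -0.54, short of the threshold. CENPE, which carries chromosomes to the plate, differed by -0.55, and KIF20A, a kinesin of the central spindle, by -0.79, the latter mainly through the RPE1 5/3 12/3 table. KIF2C (0.69), KIF4A (0.39) and KIF23 (0.089) were not counted.

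No gene of the group CENPA, CENPH, CENPI, CENPK, CENPN and CENPF was counted, and the median difference was 0.088. The figures label this group as centromere chromatin and inner kinetochore, although CENPF is not an inner kinetochore protein. CENPH and CENPK, which sit next to each other in the constitutive centromere network, were higher in both RPE1-derived tables, at -0.71 and -0.76. CENPA, the histone H3 variant of centromeres, differed by 0.45 and CENPI by -0.22 (0.12 when scaled to the same sum), each with overlapping tables, while CENPN (0.56) and CENPF (0.40) were higher in both HCT116-derived tables.

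The outer kinetochore group had a median of 0.28 with none of 9 counted (17% of all genes were, in the HCT116 direction). ZWINT (0.69), SPC25 (0.69), DSN1 (0.66) and CASC5 (0.61, now named KNL1) leaned towards HCT116, NSL1 (0.28) and MIS12 (0.24) less so. The NDC80 complex was divided: SPC25 leaned to HCT116, NDC80 overlapped at 0.12, and NUF2 (-0.31) and SPC24 (-0.61) were higher in both RPE1-derived tables, although NUF2 stood at 0.033 with the tables scaled to the same sum. SPC24 was nearest to the threshold on the RPE1 side, with a smallest difference of -0.545.

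In the SKA complex, SKA1 and SKA3 were counted and SKA2 was not (17% of all genes were counted). SKA1 had rescaled means of 503, 485, 236 and 275, SKA3 of 761, 701, 395 and 388, and SKA2 of 1473, 1245, 1422 and 1186, so that the 4 tables overlapped for SKA2 alone.

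Condensin subunits went in opposite directions. The HEAT-repeat subunit NCAPG had rescaled means of 2501, 2010, 1211 and 1164, and NCAPH of 1340, 1282, 659 and 616, both counted as higher in HCT116-derived tables. The ATPase subunits SMC2, with 1563, 883, 2062 and 2186, and SMC4, with 3761, 2784, 6006 and 4478, were higher in both RPE1-derived tables, at log2 differences of -0.85 and -0.68. SMC2 had the lowest difference of all 55 genes. For NCAPG and SMC4, 33.7% and 19% of the exon bases are shared with LCORL and TRIM59, genes of the opposite strand, and no strand setting for read counting is stated, so part of their reads cannot be assigned with certainty.

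Promoters with the CHR letters belonged to 9 of the 11 counted genes with a matched promoter. They also belonged to 57.4% of all 47 matched mitotic genes, counted or not. Of all genes compared, 17% were counted as higher in the HCT116-derived tables. The share counted among all genes with the letters was not computed, and a link between the letters and the difference was not tested. Of the 27 genes with the letters, 26 could be compared between backgrounds (all but NCAPD2), of which 9 were counted, and the median difference was 0.55. Of the 20 without, 2 were counted and the median was 0.29. The set with the letters also held SMC2, SMC4 and KIF11, so that genes at both ends of the comparison carried the motif.

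Within the HCT116 background, nearly all mitotic genes had the higher rescaled level in the HCT116 5/4 table. The log2 difference, HCT116 5/4 minus HCT116* 8/3 c7, was above 0 for 52 of 56 genes, against 47.7% of all genes, and its median was 0.23, against -0.017 for all genes. Past 0.6 there were 6 genes higher in the HCT116 5/4 table (7.75% of all genes were) and 1 gene lower (5.5% of all genes were). The difference joins the aneuploid and parental lines of each table, so the parental lines, H2B-GFP and the gained chromosomes cannot be told apart in it.

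The 6 higher genes came from 5 roles. CENPA had rescaled means of 528 and 284 in the HCT116 5/4 and HCT116* 8/3 c7 tables, a log2 difference of 0.90 or 1.86-fold. SMC2 had means of 1563 and 883 (0.82), and the securin gene PTTG1 had 1985 and 1157 (0.78). NDC80 differed by 0.67, KIF18A by 0.65 and CENPI by 0.64. RCC2 was lower, with means of 5187 and 8405, a log2 difference of -0.70. The other genes below 0 were NCAPD2 (-0.17), AURKB (-0.16) and BIRC5 (-0.058), AURKB and BIRC5 being passenger complex subunits.

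In the RPE1 background the shift was smaller. The log2 difference, RPE1 5/3 12/3 minus RPE1* 21/3, was above 0 for 39 of 55 genes, against 46.1% of all genes, with a median of 0.083, against -0.023 for all genes. KIF20A and PTTG1 were past 0.6 in the direction of the RPE1 5/3 12/3 table (3.44% of all genes were), and no mitotic gene was past it in the other direction (5.8% of all genes were). The median absolute difference of the mitotic genes was 0.25 between the HCT116-derived tables and 0.11 between the RPE1-derived tables, against 0.21 and 0.17 over all genes.

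**Figure D4:**
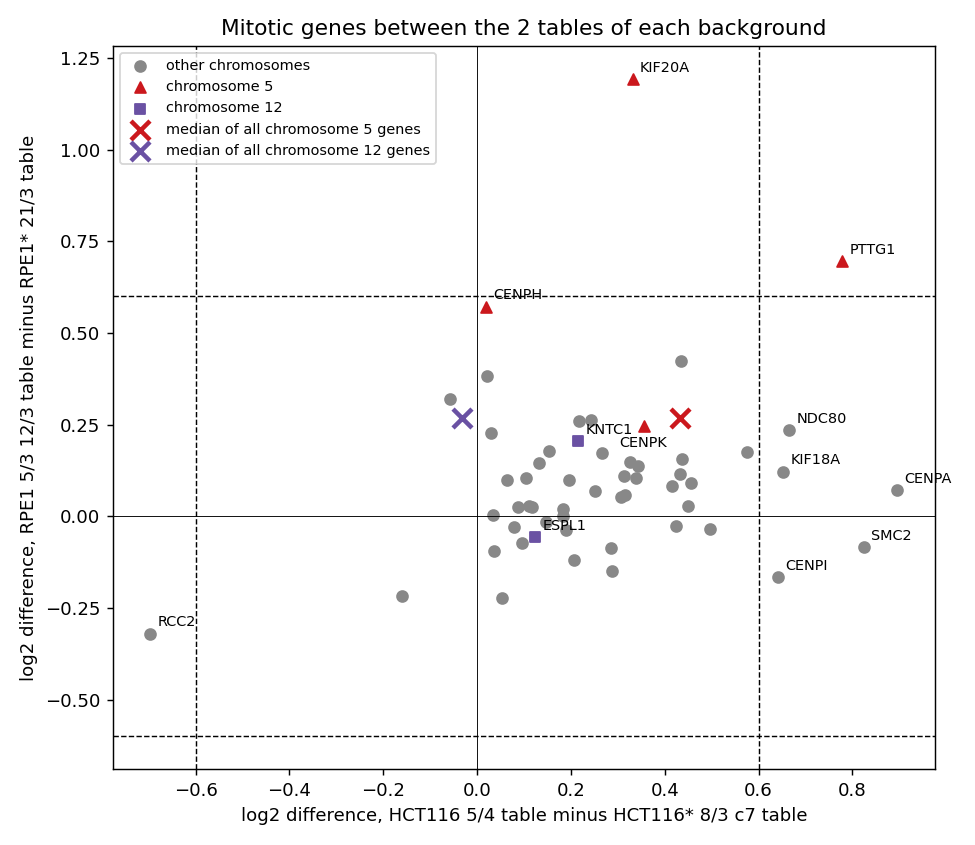
Log2 difference of rescaled means between the 2 HCT116-derived tables (horizontal axis) and between the 2 RPE1-derived tables (vertical axis) for 55 mitotic genes, with triangles and squares for genes of chromosomes 5 and 12 and crosses for the medians of all genes there. Dashed lines mark 0.6, KIF20A lies alone at 1.19 on the vertical axis, and PTTG1 is past the line on both axes.

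KIF20A and PTTG1 both lie on chromosome 5, which was gained in the first line of each pair. Across all genes of that chromosome the median log2 difference was 0.43 in the HCT116 pair (557 genes) and 0.27 in the RPE1 pair (590 genes). If RNA followed copy number, the mean over an aneuploid and a parental line would be raised by 0.58 for 4 copies and by 0.32 for 3 copies. KIF20A (GRCh37 chr5:137514408-137523412) had rescaled means of 5386 and 2356 in the RPE1 pair, a log2 difference of 1.19 or 2.29-fold that exceeded 96.6% of chromosome 5 genes, whereas in the HCT116 pair it had 2304 and 1831, a difference of 0.33 below the chromosome's median. PTTG1 (chr5:159848862-159855746) had 1623 and 1002 in the RPE1 pair, a difference of 0.69 that exceeded 90.5% of chromosome 5 genes. PTTG1 has near-identical retrocopies elsewhere in the genome and the authors kept 1 location per read, so its counts are uncertain.

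The other chromosome 5 genes were CENPH (chr5:68485401-68506184), at 0.020 in the HCT116 pair and 0.57 in the RPE1 pair, and CENPK (chr5:64813593-64858995), at 0.36 and 0.25. CENPH thus stood below the chromosome's median in one pair and above it in the other. On chromosome 12, gained in RPE1 5/3 12/3, the median of all genes was 0.27 in the RPE1 pair and -0.033 in the HCT116 pair. KNTC1 (chr12:123011793-123110943), a subunit of the ROD-ZW10-ZWILCH complex, was at 0.21 in the RPE1 pair, ESPL1 (chr12:53662083-53687422) at -0.057, above 14.2% of chromosome 12 genes, and NCAPD2 (chr12:6602522-6641121) could not be compared there. None of the mitotic genes lies on chromosome 21 or on the chromosome gained in HCT116* 8/3 c7. With the 7 genes on gained chromosomes left out, the median difference was 0.24 between the HCT116-derived tables, with 46 of 49 above 0, and 0.070 between the RPE1-derived tables, with 34 of 49 above 0.

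Further mitotic genes that were not in the list of 56 (other kinetochore, augmin, cohesin and condensin II genes) gave 56 of 62 symbols found. Between backgrounds their median was 0.24, with 9 counted as higher in HCT116-derived tables (16.1%, against 17% of all genes) and 2 as higher in RPE1-derived tables (3.57%, against 18.5%). They ran from BORA (1.4), an activator of Aurora A and PLK1, and the augmin subunits HAUS8 (1.2) and HAUS5 (1.12) at one end to CCDC99 (-1.11), the centromere protein CENPB (-1.0) and MLF1IP (-0.91) at the other. Between the HCT116-derived tables, 46 of the 56 were above 0 (47.7% of all genes were), with a median of 0.19. Past 0.6 in the HCT116 5/4 direction there were 6 (10.7%, against 7.75% of all genes), among them BOD1 and CCDC99 on chromosome 5.

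DNA replication genes, expressed earlier in the cell cycle, were used as a comparator. Of 32 found, 19 (59.4%) were counted as higher in the HCT116-derived tables, against 17% of all genes. None was counted as higher in the RPE1-derived tables, against 18.5% of all genes. Their median was 0.96, against 0.52 for the mitotic genes. The licensing factor CDT1 (2.14), the origin recognition subunit ORC1 (1.77) and the primase PRIM1 (1.70) were at the upper end. Between the HCT116-derived tables the replication genes lay the other way from the mitotic genes, with a median of -0.13 and 5 of 32 above 0 (47.7% of all genes were). Between the RPE1-derived tables their median was -0.013, with 13 of 32 above 0 (46.1% of all genes were). The share of cells in each phase was not measured in these libraries.

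Epithelial colon and mesenchymal markers separated the backgrounds, while those of retinal pigment epithelium went in both directions. The means given for them were not rescaled. Of 10 epithelial colon markers, 8 had a mean of at least 10 in each HCT116-derived table and 2 (KRT8 and KRT18) in each RPE1-derived table, with summed means of 117890 and 111173 against 32114 and 30149. Of 10 symbols for retinal pigment epithelium, 4 reached 10 in each HCT116-derived table, 6 in the RPE1 5/3 12/3 table and 4 in the RPE1* 21/3 table. The summed means of these 10 symbols were 1571 and 1206 in the RPE1-derived tables and 511 and 452 in the HCT116-derived tables. MITF stood at 1439 and 1124 in the RPE1-derived tables and at 67.4 and 62.0 in the HCT116-derived tables. BEST1 stood at 42.7 and 41.3 in the RPE1-derived tables and below 10 in each HCT116-derived table. RLBP1 stood at 32.4 and 4.77 in the RPE1-derived tables and had no row in the HCT116-derived tables. RPE65, which defines retinal pigment epithelium, went the other way. It stood at 10.4 and 4.58 in the RPE1-derived and at 287 and 194 in the HCT116-derived tables. The pigment genes TYR and DCT had no row. PMEL, another pigment gene, stood at 17.8 and 14.8 in the RPE1-derived and at 97.1 and 137 in the HCT116-derived tables, and SERPINF1 at 28.8 and 16.4 against 52.0 and 55.5. The summed means of 6 mesenchymal markers were 597719 and 539168 in the RPE1-derived and 2965 and 1888 in the HCT116-derived tables, and the part of these differences in the levels of mitotic genes was not tested.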

How the data were processed

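mRNA of 8 cell lines, 3 libraries each, had been sequenced. Per the authors' methods and processing notes, reads were trimmed with cutadapt, aligned with TopHat2 2.0.10 to hg19, keeping 1 location per read, counted over RefSeq exons with featureCounts 1.4.3 and normalized with DESeq2. Each of the 4 deposited tables compares an aneuploid with its parental line. The unit used was the signal in the deposited mean column, the authors' mean normalized read count over 6 libraries. The other 5 numeric columns hold the authors' comparison (fold change, its error, statistic, p-value and adjusted p-value) and were not used. Only means over libraries were used, so no replicate spread, test or depth per library was derived.

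Genes were placed on GRCh37 with GENCODE 44 (94.3% of 16742 by current symbol or RefSeq synonym). Exons of 15 of the 56 genes overlap another protein-coding gene, over 10% of the exon bases in 4. Tables were rescaled by their median ratio, taken from the genes that reached a mean of 10 in each of the 4. Calls used a log2 threshold of 0.6. The genes given in full were the 4 highest and 4 lowest, those past a threshold, those on gained chromosomes and subunits of 4 complexes. The mitotic genes and the other lists were chosen with earlier results of these data known. Calculations used Python 3.11.15, numpy 2.4.6 and pandas 2.3.3 and were tested on simulated data.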

Additional observations from a re-analysis of the deposited data

How the results depend on the processing

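The median differences of the mitotic genes kept their direction under each scaling and filter tried. Scaling the tables to the same sum gave 29 of 55 mitotic genes higher in the HCT116-derived tables (28.4% of all genes) and a median of 0.86, while the median of all genes moved to 0.35. The upper quartile gave 26 of 55 (25.1% of all genes) and 0.78, with 0.26 for all genes. Rescaling shifts all genes alike, so the distance between both medians cannot change with it. A log2 threshold of 1 left 2 genes (KIF18A and ESPL1) higher in the HCT116-derived tables, against 9.52% of all genes, so that the mitotic genes then lay below the share among all genes. It left 0 higher and 0 lower in the HCT116 5/4 table (3.04% and 1.6% of all genes), and 1, KIF20A, higher in the RPE1 5/3 12/3 table (1.25%). Counting by the mean difference gave 24 genes higher in HCT116-derived and 7 in RPE1-derived tables (23.7% and 24.8% of all genes). The other 47 counts and medians stayed within 1.5 times the count or moved by less than the spread between tables. Among these, a smallest mean of 100 gave 17 of 55 mitotic genes higher in the HCT116-derived tables, against 13.7% of all genes. For single genes the spread was the SD of the gene's own 4 differences between backgrounds or, within a background, the spread of the difference over all genes. By it 744 values stayed within the spread and 86 moved beyond it. In all, 11 changed sign, each with a size of at most 0.31 in the scaling used (BUB3, PRC1, CENPI and NUF2 between the backgrounds, MAD2L1, MAD1L1 and CDCA8 between the RPE1-derived tables). Leaving out a replicate was not possible because the tables hold means over libraries. No paired analysis was possible because no result comes from a test. No depth limit was computed, since no counts per library were used.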

Other observations

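Cohesin and its regulators were spread over both directions between the backgrounds. SMC3, an ATPase subunit of the ring, had rescaled means of 2499 and 1971 in the HCT116 5/4 and HCT116* 8/3 c7 tables and of 3797 and 3770 in the RPE1 5/3 12/3 table and the RPE1* 21/3 table. Its partner SMC1A had 4032, 3919, 3050 and 2917, so that the 2 ATPase subunits leaned in opposite directions, at log2 differences of -0.77 and 0.41. The condensin II subunit NCAPH2 had 1417, 1249, 731 and 751 (0.84), while NCAPD3, of the same complex, differed mainly between the HCT116-derived tables, with 2179 and 1224 (0.83 on the log2 scale).

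The augmin subunits, which recruit gamma-tubulin to spindle microtubules, were unequal too. HAUS5 and HAUS8 were past the threshold between the backgrounds, whereas HAUS1 (0.12) and HAUS7 (0.14) overlapped between the tables.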
